A study of Mus musculus with 6 samples.

Results

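Transcripts of cumulus and granulosa cells, the follicle cells that surround the oocyte, were followed as a check of carry-over in sequencing libraries of mouse metaphase II (MII) eggs, which are ovulated and unfertilized. The set is a list of 38 gene symbols known from these cells. All 38 were among the 24062 genes of the count table, and 24 passed the filter on low counts and were tested.

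The eggs came from superovulated 8-week-old females that carried the multicolour transgene HISRainbow and the recombinase Figla-iCre, named for the oocyte gene Figla. Each egg expressed 1 of 3 tagged forms of histone H3.3, read from its colour by confocal microscopy. The forms were H3.3-eGFP (here H3.3, unmutated), H3.3K27R-mCherry (K27R) and H3.3R26K-eCFP (R26K), so that tag and substitution cannot be told apart. Each form had 2 libraries, called biological replicates in the labels. How many eggs and females entered a library, and how the cells around the eggs were removed, is not given in the sources used here.

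Granulosa cells line the follicle and make estradiol under follicle-stimulating hormone. Those nearest the oocyte, the cumulus cells, are joined to it by gap junctions and feed it. After the surge of luteinizing hormone (LH), EGF-like ligands drive the cumulus to lay down a hyaluronan matrix and expand, while other granulosa cells turn towards making progesterone. Ovulated eggs leave the follicle inside this expanded cumulus mass, so its transcripts are the first place to look for RNA from cells other than the egg.

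Total counts ranged from 10803477 to 39603440 per library, and the R26K libraries were the deepest. Levels are CPM, counts per 1000000 counts of the library after TMM scaling (trimmed mean of M values). A count of 0 allows up to 3 counts, which is 0.0815 CPM in the deepest library and 0.285 CPM in the shallowest. The libraries are amplified cDNA, whose reads are not separate molecules, so these floors and the counting intervals below leave out all error other than that of counting. The egg label fitted the markers: all 10 egg markers had counts in every library, led by Gdf9 at 11040 to 16125 CPM. Their sum was lower with R26K, at 24887 and 23727 CPM, than in the other libraries, at 31175 to 38038 CPM, and so was Dppa3, which like Krt8 below has an annotated pseudogene that may share reads, at 4425 and 3280 CPM beside 8105 to 12376 CPM (edgeR adjusted p = 0.0966 for R26K against H3.3). The part of this in the higher mean number of members and the higher level of the member Serpine2 with R26K was not tested. H3.3 replicate 1, H3.3 replicate 2 and K27R replicate 2 stood apart by having counts for 7392 to 7590 genes, against 10715 to 12135 in the other 3 libraries.

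Cumulus and granulosa transcripts were present in every library, but the set of genes found differed in part from library to library. Of the 38, 11 and 15 were found with at least 1 count in the H3.3 replicates, 23 and 8 in those of K27R, and 26 and 21 in those of R26K. The group means were 13 ± 2.83 (SD, n = 2), 15.5 ± 10.6 and 23.5 ± 3.54. The K27R replicates thus lay further apart than any pair of group means. Of all genes in the table, the H3.3 replicates held 31.5% and 30.7%, the K27R replicates 44.5% and 30.8%, and the R26K replicates 50.4% and 50.3%. For the 38, the shares were 28.9% and 39.5%, 60.5% and 21.1%, and 68.4% and 55.3%. The 3 libraries with the most members, K27R replicate 1 and both R26K libraries, also held the most genes of any kind, and the part of this in the members' numbers was not tested. In the other 3 libraries the numbers did not go together: H3.3 replicate 2, with 7392 genes, held 15 members, and K27R replicate 2, with 7405 genes, held 8. Depth changed little: the numbers expected at the depth of the smallest library were 10.5 and 14.9, 22.9 and 8, and 25.2 and 21.0.

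**Figure D1:**
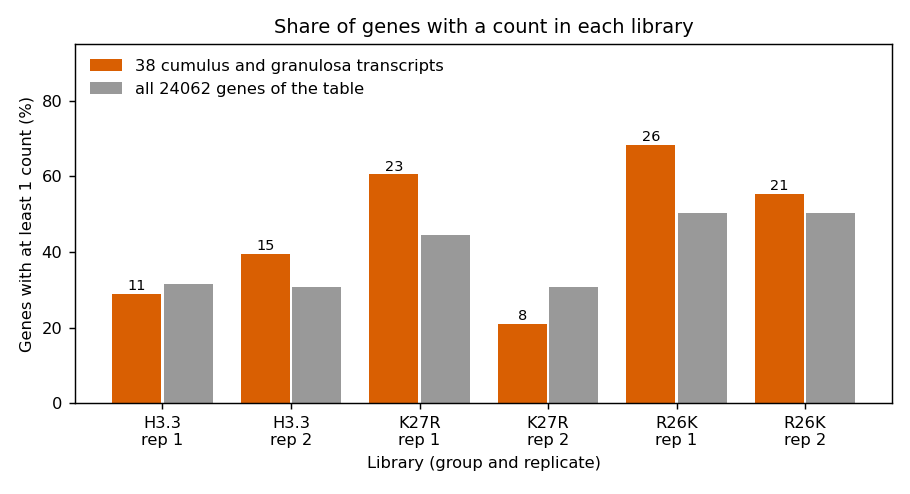
Share of genes with at least 1 count (y axis, %) in each of the 6 libraries (x axis), for the 38 cumulus and granulosa transcripts (orange, with their number above the bar) and for all 24062 genes (grey). The orange bar is lowest in K27R replicate 2 (8 of 38) and highest in R26K replicate 1 (26 of 38), and the grey bars are low in the same 3 libraries, H3.3 replicates 1 and 2 and K27R replicate 2.

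Of the 38 genes, 7 had no count anywhere: Cd44, the hyaluronan receptor; Adamts1, a matrix protease; Areg and Ereg, the EGF-like ligands amphiregulin and epiregulin; Pgr, the progesterone receptor; Lhcgr, the LH receptor; and Wt1, a transcription factor of the gonad. Another 5 had a count in 1 library, 4 in 2, 7 in 3, 8 in 4 and 4 in 5. Only Serpine2, Gja1 and Nr5a2 had counts in all 6. Among all genes, 40.8% had no count anywhere and 20.9% had one in all 6 libraries, against 18.4% and 7.89% of the 38. Most of the set was thus found in some libraries and not in others.

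**Figure D2:**
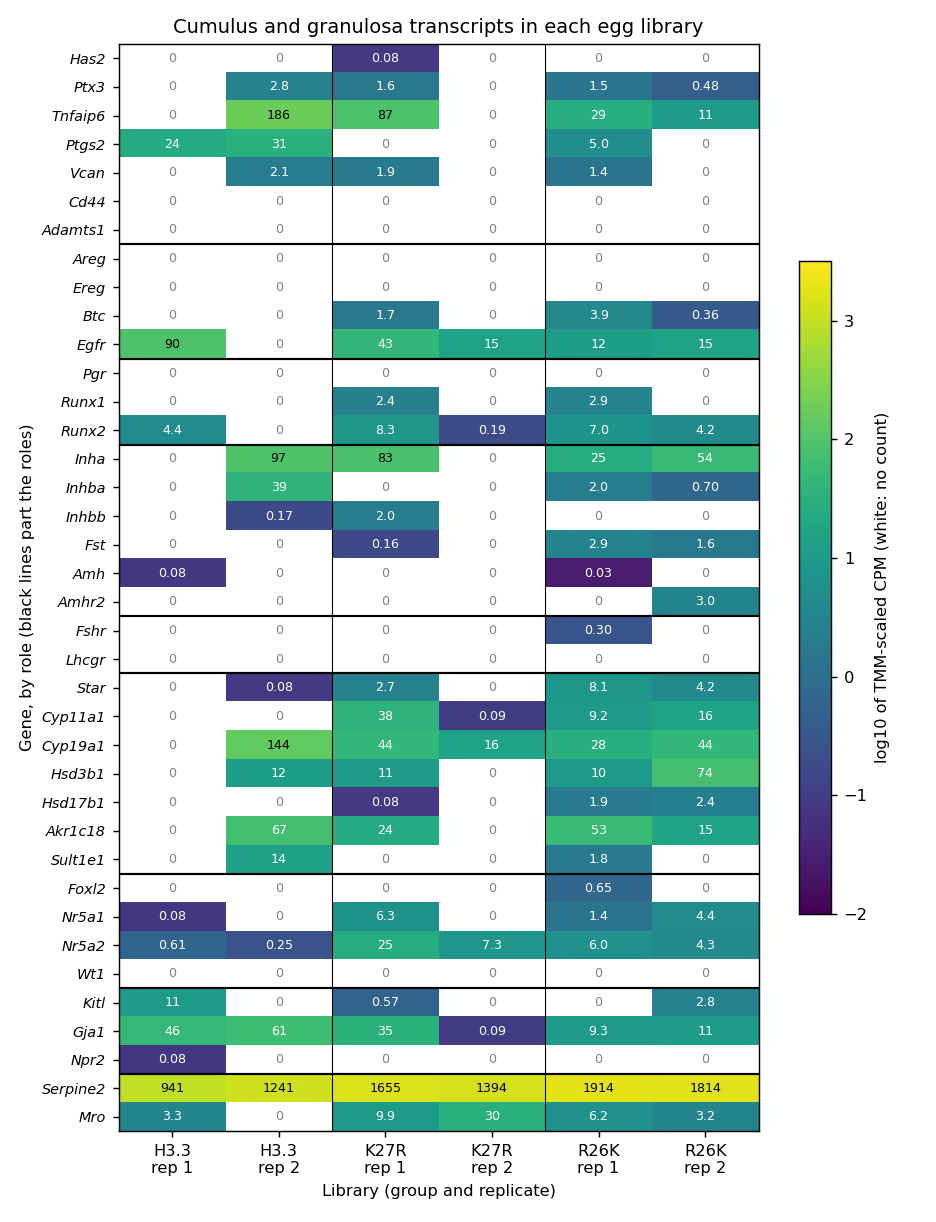
Level of each of the 38 transcripts (rows, ordered by role) in each library (columns), in TMM-scaled CPM, as a number and as colour on a log10 scale; white cells with 0 had no count. Serpine2 is the 1 row that is high in all 6 libraries, while most other rows are white for H3.3 replicate 1 and K27R replicate 2.

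Serpine2, a secreted inhibitor of serine proteases, was by far the most abundant of the set. It lies on chromosome 1 from 79794197 to 79861180 (mm10, reverse strand). Its levels were 941 and 1241 CPM in H3.3, 1655 and 1394 CPM with K27R, and 1914 and 1814 CPM with R26K, or 1091 ± 212 (SD, n = 2), 1525 ± 184 and 1864 ± 70.8. The highest library was 2.03 times the lowest, and the 3 groups did not overlap. The transcript ranked between 61 and 151 among all genes of a library and made up 65.4% to 95.3% of the summed level of the 38. It was at 1394 CPM in K27R replicate 2, where only 4 other members had at least 3 counts. In the other 5 libraries, it was lowest in the 2 of H3.3, at 941 and 1241 CPM, where 11 and 15 members had a count. The group and the number of members cannot be told apart there, and a link between level and number was not tested. Against H3.3, the log2 fold change was 0.77 ± 0.23 (SE) in R26K, with an edgeR adjusted p of 0.213, and 0.48 ± 0.23 in K27R, with an adjusted p of 0.522. Between K27R and R26K it was -0.29 ± 0.23 (edgeR adjusted p = 0.801).

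Without Serpine2, the other 37 genes summed to 179 and 657 CPM in H3.3, 427 and 68.1 CPM with K27R, and 229.6 and 270.1 CPM with R26K. The means were 418 ± 338 (SD, n = 2), 247 ± 254 and 249.8 ± 28.6. H3.3 replicate 2 was the highest library and K27R replicate 2 the lowest, and the ranges of H3.3 and K27R enclosed both R26K libraries. Whether all of this RNA came from follicle cells was not tested. In these bulk libraries, fewer such cells and less RNA per cell cannot be told apart either. The leading gene of the 37 also changed. It was Egfr in H3.3 replicate 1 (50.3% of the sum), Tnfaip6 in H3.3 replicate 2 (28.4%) and again in K27R replicate 1 (20.4%), and Mro in K27R replicate 2 (44.5%). In R26K it was Akr1c18 in replicate 1 (22.9%) and Hsd3b1 in replicate 2 (27.4%).

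**Figure D3:**
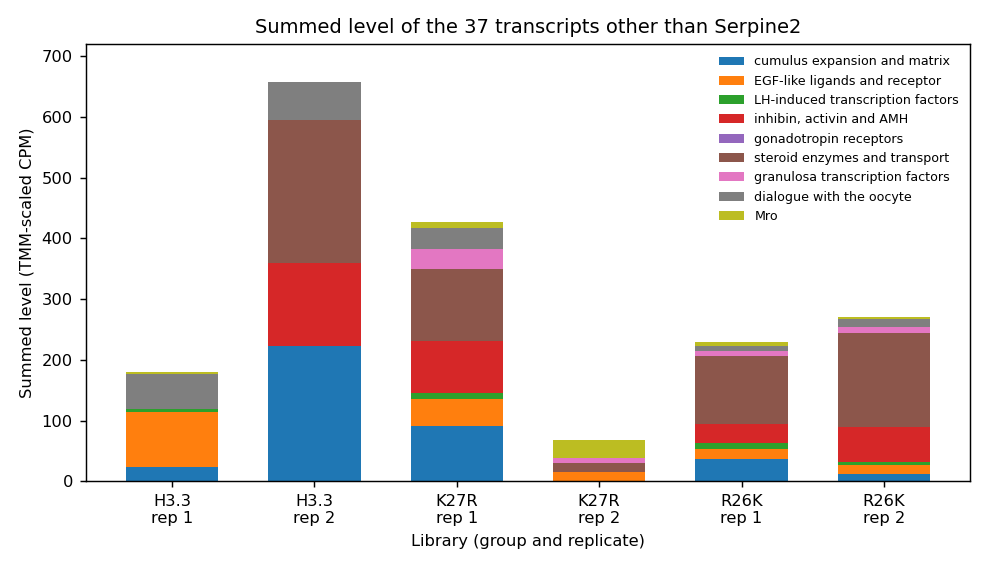
Summed level (y axis, TMM-scaled CPM) of the 37 transcripts other than Serpine2 in each library (x axis), stacked by role. H3.3 replicate 2 reaches 657 CPM, mostly matrix, inhibin and steroid genes, while K27R replicate 2 reaches 68.1 CPM and has no matrix or inhibin part.

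Genes of cumulus expansion and its matrix were led by Tnfaip6, which encodes the hyaluronan-binding protein TSG-6 (chromosome 2, 52038009 to 52056686). It had no count in H3.3 replicate 1, 186 CPM in H3.3 replicate 2, 86.9 CPM in K27R replicate 1, no count in K27R replicate 2, and 29.4 and 11.0 CPM with R26K. Both R26K libraries thus lay inside the range of H3.3 and of K27R. Ptx3, a pentraxin that helps to cross-link hyaluronan, was present in the same 4 libraries at 0.484 to 2.80 CPM. Vcan, the matrix proteoglycan versican, was found in 3 of those 4, at 1.38 to 2.12 CPM. Has2, the hyaluronan synthase, had 1 count in all, in K27R replicate 1. Ptgs2, the prostaglandin synthase induced by LH (chromosome 1, 150100031 to 150108227), had another pattern. It stood at 23.8 and 31.4 CPM in H3.3, without a count in K27R, and at 5.02 CPM in the first R26K replicate, being absent from the other. Against the floor of 3 counts per library in K27R, its mean in H3.3 was at least 104-fold higher, with an edgeR adjusted p of 0.522.

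Of the EGF-like system, the ligands Areg and Ereg had no count, and the third ligand, Btc (betacellulin), was seen in 3 libraries at 0.363 to 3.91 CPM. Their receptor Egfr (chromosome 11, 16752203 to 16918158) was at 90.2 CPM in H3.3 replicate 1 but at 0 in H3.3 replicate 2. It was at 42.9 and 14.5 CPM with K27R and 12.3 and 14.9 CPM with R26K. The 2 H3.3 libraries therefore held the highest and the lowest value of the 6. Among transcription factors induced by LH, Runx1 was present in 2 libraries, at 2.44 CPM in K27R replicate 1 and 2.91 CPM in R26K replicate 1. Runx2 was present in 5, at 0.190 to 8.31 CPM, and was without a count in H3.3 replicate 2. Exons of Has2, Runx1, Runx2, Fst, Foxl2 and Npr2, and of Bmp6, Gpr3, Pde3a and Krt8 among the other genes named, overlap genes on the other strand, whose reads these libraries cannot tell from theirs.

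Among hormones of the TGF-beta family, Inha, which encodes the alpha subunit of inhibin (chromosome 1, 75507077 to 75510366), was the highest. It was without a count in H3.3 replicate 1 and at 97.5 CPM in H3.3 replicate 2, at 83.0 CPM and no count in K27R, and at 25.3 and 53.5 CPM with R26K. Inhba, the beta A subunit shared by inhibin and activin, was at 38.7 CPM in H3.3 replicate 2, at 2.04 and 0.696 CPM with R26K, and had no count elsewhere. Inhbb, the beta B subunit, was seen with 2 counts in H3.3 replicate 2 and with 25 in K27R replicate 1. Fst, the activin-binding protein follistatin, was at 2.91 and 1.60 CPM with R26K and 0.163 CPM in K27R replicate 1. Amh, the anti-Müllerian hormone of small follicles, had 2 counts in all, and its receptor Amhr2 was seen in R26K replicate 2 only, at 2.99 CPM. Of the gonadotropin receptors, Fshr had 11 counts in R26K replicate 1 and none elsewhere, and Lhcgr had none.

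The steroid genes were the role with the most members detected. All 7 had a count in R26K replicate 1, 6 in R26K replicate 2 and in K27R replicate 1, 5 in H3.3 replicate 2, only 2 in K27R replicate 2 and none in H3.3 replicate 1. Their summed level ran in H3.3 from 0 to 236 CPM, in K27R from 15.7 to 119 CPM and in R26K from 112 to 155 CPM. Cyp19a1, the aromatase that makes estradiol (chromosome 9, 54165937 to 54268110), was at 0 in H3.3 replicate 1 and at 143.5 CPM in H3.3 replicate 2. It was at 43.7 and 15.6 CPM with K27R and 28.3 and 43.8 CPM with R26K. Akr1c18, which breaks down progesterone (chromosome 13, 4132615 to 4150654), was absent from H3.3 replicate 1 and K27R replicate 2. It was at 67.0 CPM in H3.3 replicate 2, 23.7 CPM in K27R replicate 1, and 52.7 and 14.8 CPM with R26K. Hsd3b1, an enzyme of progesterone synthesis, was at 11.6, 10.8 and 10.1 CPM in H3.3 replicate 2, K27R replicate 1 and R26K replicate 1, and at 74.0 CPM in R26K replicate 2. Akr1c18 and Hsd3b1 belong to families of similar genes, and how reads that fit several members were counted is not given in the sources used here.

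Cyp11a1, which cuts cholesterol to the first steroid (chromosome 9, 58006411 to 58027023), had no count in H3.3. It was at 38.3 and 0.0950 CPM with K27R, the latter a single count, and at 9.23 and 15.7 CPM with R26K. Its R26K mean was at least 51.4-fold higher than the floor of 3 counts per library in H3.3, with an edgeR adjusted p of 0.221. Its exons overlap those of Gm17322 on the same strand. Star, which carries cholesterol into mitochondria, had a single count in the H3.3 replicates together and 439 in those of R26K. The ratio of levels was 156, with 27.8 and 6172 as the bounds of its exact 95% counting interval, and the edgeR adjusted p was 0.280. Hsd17b1, which converts estrone to estradiol, was at 1.87 and 2.36 CPM with R26K, had 1 count in K27R and none in H3.3. Sult1e1, an estrogen sulfotransferase, was at 14.2 CPM in H3.3 replicate 2 and 1.77 CPM in R26K replicate 1, and without a count elsewhere.

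Of the transcription factors that define granulosa cells, Foxl2 had 24 counts in R26K replicate 1 and none elsewhere, and Wt1 had none. Nr5a1 (SF-1) was at 6.27 CPM in K27R replicate 1 and 1.36 and 4.45 CPM with R26K, with 1 count in H3.3 replicate 1. Nr5a2 (LRH-1), needed for ovulation, was counted in all 6 libraries (chromosome 1, 136842571 to 136960448). It stood at 0.613 and 0.255 CPM with H3.3, 25.1 and 7.31 CPM with K27R, and 6.03 and 4.27 CPM with R26K. All K27R and R26K libraries lay above both H3.3 libraries. The log2 fold change against H3.3 was 5.20 ± 2.29 (SE) for K27R (edgeR adjusted p = 0.522) and 3.55 ± 2.12 for R26K (edgeR adjusted p = 0.362). Mro, a gene named for its male-biased expression in the gonad, was the leading member after Serpine2 in K27R replicate 2 at 30.3 CPM. Elsewhere it was at 9.94 CPM in K27R replicate 1, 3.29 CPM in H3.3 replicate 1, and 6.16 and 3.24 CPM with R26K, with no count in H3.3 replicate 2.

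The dialogue between follicle cells and oocyte was measured from both sides. Gja1, the connexin 43 of the follicle cells (chromosome 10, 56377330 to 56402513), stood at 46.1 and 61.0 CPM with H3.3, 34.5 CPM and a single count with K27R, and 9.34 and 10.7 CPM with R26K. R26K lay below H3.3 without overlap, with a log2 fold change of -2.42 ± 2.08 (SE, edgeR adjusted p = 0.555). Gja4, the connexin 37 of the oocyte, was at 127 to 220 CPM in all libraries. Kitl, the kit ligand, was at 10.7 CPM in H3.3 replicate 1, 0.570 CPM in K27R replicate 1 and 2.75 CPM in R26K replicate 2, and went uncounted in the other 3 libraries. Kit, its receptor on the oocyte, was at 64.8 to 272 CPM. Npr2, the natriuretic peptide receptor that holds meiosis through cyclic GMP, had 1 count in all. Of 8 genes of the oocyte side (Gdf9, Bmp15, Bmp6, Fgf8, Kit, Gja4, Gpr3 and Pde3a), 7 had counts in each library, and Fgf8 in K27R replicate 1 and both R26K libraries. None was called in any comparison (lowest edgeR adjusted p = 0.217). Apart from Fgf8, the oocyte side was present in every library, also in K27R replicate 2, where a single count of Gja1 was all that was found of Gja1, Kitl and Npr2.

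**Figure D4:**
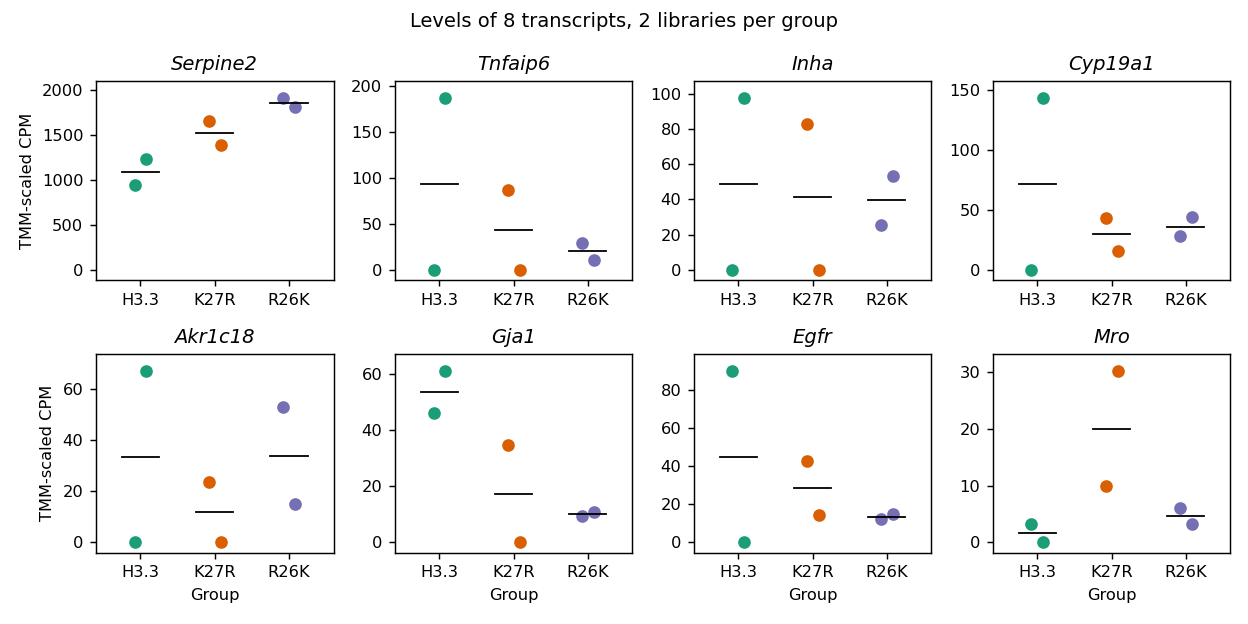
Level (y axis, TMM-scaled CPM, from 0) of 8 transcripts in the 3 groups (x axis); points are single libraries and bars the mean of 2. For Tnfaip6, Inha and Akr1c18 the H3.3 and K27R groups each hold 1 library at 0, while the 2 Serpine2 points of each group lie close together.

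Levels between genes were compared per kilobase of exon, as the mean over the 6 libraries. Serpine2 stood at 180 CPM per kilobase. It was followed by Tnfaip6 (30.6), Inha (29.3), Akr1c18 (21.8), Cyp19a1 (10.1) and Hsd3b1 (9.57). Gja1 (2.63), Egfr (2.57), Cyp11a1 (2.20) and Ptgs2 (2.19) were lower. From Tnfaip6 downwards, neighbours in this order did not differ beyond their spread between libraries, which for each of these genes except Gja1 included a library with no count.

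Of the 38, 6 shared 1 pattern: Tnfaip6, Ptx3, Inha, Hsd3b1, Akr1c18 and Star had counts in H3.3 replicate 2, K27R replicate 1 and both R26K libraries and none in the other 2. These are 15.8% of the set, and 2.19% of all genes had this pattern. Star rested on 1 count in H3.3 replicate 2. Within these libraries the proportions of the genes were not constant. There were 1.91, 1.05, 1.16 and 0.206 counts of Tnfaip6 for each count of Inha in H3.3 replicate 2, K27R replicate 1, R26K replicate 1 and R26K replicate 2. For Hsd3b1 the ratios to Inha were 0.119, 0.131, 0.398 and 1.38 in the same order, and for Cyp19a1 1.47, 0.526, 1.12 and 0.818. The highest ratio was 9.27 times the lowest for Tnfaip6, 11.7 times for Hsd3b1 and 2.80 times for Cyp19a1. A transcript of 1 replicate was often missing from the other. In H3.3, 13 of the 16 members with at least 10 counts in either library had none in the other, in K27R 11 of 19, and in R26K 8 of 27. Among all genes with at least 10 counts in either library, whose levels run higher, the shares were 30.1%, 31.8% and 14.7%. For genes that averaged 10 to 100 CPM, 8 of 9 members (88.9%) and 35.3% of all genes had at least 1 library without a count. For those that averaged 1 to 10 CPM, the shares were near each other, at 8 of 9 members and 90.6% of all genes.

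The 3 comparisons asked whether follicle transcripts differed between the forms of H3.3. In R26K against H3.3, 0 of 24 tested members passed (quasi-likelihood test of edgeR, p adjusted by Benjamini-Hochberg under 0.05), where 0.619% of all tested genes did. The lowest adjusted p among members was 0.213. An unadjusted p under 0.05 was reached by 4 of the 24, Serpine2, Fst, Hsd17b1 and Cyp11a1, and by 21.7% of all tested genes. With DESeq2, 2 members passed, Serpine2 (adjusted p = 0.0337) and Cyp11a1 (0.0103), both higher in R26K, beside 15.4% of all tested genes. Values lay above 0 for 13 members and below 0 for 11, with a median log2 fold change of 0.39 beside 0.66 for all tested genes. Single libraries moved this median. It was 7.62 without H3.3 replicate 2 (21 of 26 tested members above 0), 3.07 without H3.3 replicate 1, 0.77 without K27R replicate 1, 0.65 without R26K replicate 2 and 0.06 without R26K replicate 1. The medians of all tested genes were 2.12, 2.56, 1.01, 0.58 and 0.63 in the same order.

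In K27R against H3.3, 0 of 24 members passed by edgeR, as did 0% of all tested genes, and the lowest adjusted p among members was 0.522. Cyp11a1 and Ptgs2 reached an unadjusted p under 0.05, 8.33% of the members beside 7.12% of all tested genes. DESeq2 called 4 members, Nr5a2 (adjusted p = 0.0273) and Cyp11a1 (0.0113) higher and Ptgs2 (0.0195) and Inhba (5.0e-08) lower in K27R, beside 6.42% of all tested genes. Of these, Cyp11a1 rested on K27R replicate 1 and Inhba on H3.3 replicate 2, each with at most 1 count in the other library of its group. Of the 24, 11 lay above 0, and the median was -0.13 beside 0.12 for all tested genes. The sign rested on single libraries. The median was 4.98 without H3.3 replicate 2 (18 of 26 above 0), 1.43 without H3.3 replicate 1 and 0.80 without K27R replicate 2, and it was -3.00 without K27R replicate 1 (4 of 25 above 0) and -0.04 without R26K replicate 1. For all tested genes it was 0.31, 0.44, 0, 0 and 0.11 in the same order. In K27R against R26K, 0 of 24 passed by edgeR, beside 0.375% of all tested genes, and no member had an unadjusted p under 0.05. DESeq2 called 1 of 24, Inhba, lower in K27R, beside 7.12% of all tested genes. Of the 24, 9 lay above 0, and the median was -0.29 beside -0.32. It was -7.87 without K27R replicate 1 (3 of 25 above 0), 0.42 without K27R replicate 2 (14 of 26), -0.56 without R26K replicate 2 and 0 without R26K replicate 1. The matching medians of all tested genes were -2.43, -0.34, -0.27 and -0.27. The 3 comparisons share groups, so they are not independent of each other.

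The intervals were wide. Besides Serpine2, whose standard error was 0.23 in each comparison, Cyp19a1 had a log2 fold change of -0.99 ± 2.35 (SE) in R26K and -1.28 ± 2.37 in K27R against H3.3, and -0.28 ± 2.33 in K27R against R26K. The values for Egfr were -1.73 ± 2.47, -0.65 ± 2.41 and 1.08 ± 2.43. Those for Gja1 in K27R were -1.63 ± 2.02 against H3.3 and 0.79 ± 1.98 against R26K, and Nr5a2 was 1.65 ± 1.96 against R26K. Without K27R replicate 1 these 3 values were -9.05, -6.64 and 0.51, and without K27R replicate 2 they were -0.63, 1.79 and 2.28. A failed test at this spread does not show that the groups had equal levels.

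A second list held 24 other genes of follicle cells, not members, of which 13 were tested and 0 were called by edgeR in any comparison (lowest adjusted p = 0.184). Of the 24, 7 and 10 were counted in the H3.3 replicates, 10 and 6 in those of K27R, and 16 and 13 in those of R26K, the same order of libraries within each group as for the 38. The 3 most abundant were Esr2, the estrogen receptor beta, at 39.6 to 220.1 CPM, Scarb1, a lipoprotein receptor that brings in cholesterol, at 46.7 to 107 CPM, and Fdx1, which passes electrons to Cyp11a1. Esr2 and Scarb1 were thus counted in every library. Fdx1 stood at 19.8 and 34.2 CPM with H3.3, 19.9 and 0.0950 CPM with K27R, and 124 and 129 CPM with R26K (edgeR adjusted p = 0.511 for R26K against H3.3).

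Markers of other cells numbered 32, of theca, oviduct epithelium, stroma, endothelium, immune cells and red blood cells. The H3.3 replicates held 6 and 5 of them, the K27R replicates 8 and 6, and the R26K replicates 8 and 7. Their sums ranged from 27.1 to 130 CPM in H3.3, 174.5 to 180 CPM with K27R and 100.3 to 172 CPM with R26K. Most of this was Pecam1, an endothelial adhesion molecule, at 15.4 to 156 CPM. Of the other endothelial genes, Kdr and Tek, both receptors, were counted in 3 and 2 libraries, at no more than 9.20 CPM. Cdh5, the remaining endothelial gene of the list, had 1 count in H3.3 replicate 1 and none elsewhere. Of the 8 immune genes, 3 had counts. H2-Aa, of antigen presentation, was at 33.02 CPM in H3.3 replicate 1 and 32.4 CPM in K27R replicate 2 and at no more than 1.88 CPM elsewhere. C1qb, of complement, reached 17.1 CPM in K27R replicate 2, and Cd68, of macrophages, 11.0 CPM in H3.3 replicate 2. The other 5 immune genes, the leukocyte marker Ptprc among them, were at 0 in every library, as were the theca markers Cyp17a1 and Insl3 and all 6 haemoglobin genes. Of 6 oviduct genes, the epithelial Krt8, Krt18 and Epcam reached 11.7, 10.5 and 4.54 CPM in R26K replicate 1 and no more than 0.756 CPM elsewhere, and Ovgp1, Pax8 and Foxj1 were at 0 throughout. Of 6 stromal genes, Dcn reached 11.9 CPM in R26K replicate 2, where the other 5 were at 0, and the collagens Col1a2 and Col1a1 stayed at or under 0.510 CPM. H3.3 replicate 2, with the highest sum of follicle transcripts other than Serpine2, had the lowest sum of these markers.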

How the data were processed

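Whole-number counts of reads per gene were deposited as 1 table with 6 columns, each matched to 1 sample by its name, with 0 columns left out. The tools named per the submitters' processing notes are featureCounts, SAMtools 1.3, TopHat2 2.1.0 and cutadapt 1.9.1, and the build is mm10; annotation, strand setting and treatment of multi-mapping reads are not given in the sources used here. Per the labels' protocols, the SMARTer Ultra Low kit gave the cDNA and the Nextera kit the libraries.

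Here, the counts were fitted with edgeR 4.0.16 in R 4.3.3 (TMM scaling, filterByExpr, glmQLFit and glmQLFTest) in 1 fit of 10667 genes and all 6 libraries, leaving 3 residual degrees of freedom. The two-sided tests used Benjamini-Hochberg adjustment over all tested genes and a threshold of 0.05. A standard error is the size of a log2 fold change over the root of its F statistic. The p-values measure only how these libraries vary, since the labels do not say that they came from separate females. The steps were tested on simulated data. Exon lengths and coordinates came from GENCODE M21 (GRCm38), in which all 38 symbols were found. Numbers expected at the depth of the smallest library are exact hypergeometric expectations.

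Members with a count are named, and of the other lists the 3 genes with the highest mean level. Outside this rule, members and defining markers without a count, the endothelial gene Cdh5 and the whole oocyte-side list are named for completeness. The members and lists were chosen with earlier results of these data known. Alternatives were DESeq2 1.42.0, relative log (RLE) scaling, no filter, a fit of the 2 groups compared, a replicate block and each library left out in turn.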

Additional observations from a re-analysis of the deposited data

How the results depend on the processing

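By edgeR, 0 members were called in each of the 3 comparisons under RLE scaling, no filter, a fit limited to those 2 groups, the replicate block (0 in each) and with each library left out. DESeq2 called 2 (R26K against H3.3), 4 (K27R against H3.3) and 1 (K27R against R26K). Over all genes, the calls were 66, 0 and 40 by edgeR and 1644, 685 and 759 by DESeq2. They were 241 and 156 without a filter for the comparisons with R26K, 260 and 195 with the replicate block, and 0 for R26K against H3.3 in a fit of these groups alone. With a library left out they ranged from 1 to 193, 0 to 5 and 0 to 140. The labels do not say whether the replicate numbers pair the libraries. Differences between replicates correlated across genes at 0.0012, -0.0096 and 0.011 between groups. With so many genes counted in only 1 replicate of a group, these values cannot decide whether libraries of the same number are paired. With the replicate block, the members' median log2 fold changes were 1.45, 0.66 and -1.19, and in a fit of the groups compared alone -0.14, -0.41 and -0.25, beside 0.39, -0.13 and -0.29. Without a filter they were 0.02, 0 and -0.28. For all tested genes, the medians were 1.32, 0.22 and -0.73 with the block and 0.60, 0.0072 and -0.30 in a fit of the groups compared alone. Without a filter, those of all genes were 1.21, 0 and -0.55. Single log2 fold changes changed sign where 1 library decided them. With each library left out, Egfr ranged from -2.73 to 11.14 in R26K and from -1.66 to 12.24 in K27R against H3.3, the high values being those without H3.3 replicate 1, and it was 0.38 in K27R with the replicate block. Cyp19a1 ranged from -2.01 to 12.58 and from -2.27 to 12.29, the high values being those without H3.3 replicate 2. In K27R against R26K, Cyp19a1 ranged from -1.21 to 0.28, with 0.28 without K27R replicate 2 and 0.064 without R26K replicate 2, and was 0.13 with the block. Gja1 ranged there from -6.64 without K27R replicate 1 to 1.79. The remaining group keeps fewer libraries there, and a lone library is assumed to vary like the other groups. Asking for at least 10 counts gave means of 9.5, 12 and 23 members in H3.3, K27R and R26K, beside 13, 15.5 and 23.5. Of all genes, 27.7% and 26.6% reached 10 counts in the H3.3 replicates, 39.5% and 26.7% in those of K27R, and 47.1% in each of R26K. Without Serpine2, the summed level fell to 418, 247 and 249.8 CPM in H3.3, K27R and R26K. With Serpine2 included, the R26K sum was 2054 CPM with RLE and 2016 CPM unscaled, beside 2113 CPM. At the depth of these libraries, a transcript without a count in a library of H3.3 or K27R could have lain at up to 0.230 to 0.285 CPM, by counting error alone.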
